A study of Mus musculus with 12 samples.

Results

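FL MycER cells are FL5.12 cells, an established BALB/c mouse line that the labels call prolymphocytic, which carry a MycER chimera. The 6 libraries described here, of 12 in all, compare such cells kept 72 h in 100 nM 4-hydroxytamoxifen (OHT, 3 libraries) with cells that received no OHT (untreated, 3 libraries). Both groups carry MycER, which per the study's methods a retrovirus expresses constitutively in a selected pool of transduced cells grown in interleukin 3. In the other 6 libraries the complex I inhibitor IACS-010759 (135 nM, the last 24 h) was given without OHT (IACS, 3 libraries) or with it (OHT_IACS, 3 libraries), so that OHT_IACS against IACS measures the OHT contrast again in libraries of their own. OHT was dissolved in ethanol, and whether the untreated cells received ethanol is not given in the sources used here. Cells without MycER were not analysed here, so an effect of OHT itself and one of MycER cannot be told apart. The study's methods call the 3 libraries of a group biological replicates, and neither they nor the labels say that these came from separate cultures, so the p-values measure the spread between these libraries, which may in part be technical.

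MYC is a transcription factor that binds DNA as a dimer with MAX, most tightly at the E-box CACGTG, and it is best known for raising the genes of ribosome production, mitochondria and nucleotide synthesis. In the MycER chimera it is fused to the hormone-binding domain of the oestrogen receptor, and OHT releases the chimera to act. MYC is also known to lower transcripts, among them those of adhesion molecules and of differentiation, in part through the partner MIZ1 (Zbtb17). The MYC targets, the oxidative phosphorylation (OxPhos) genes and the ATF4 targets are left aside below, and the account follows the genes of other functions.

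The values were RPKM, the reads on a gene relative to its length in kilobases and to the total of the library, scaled so that the median gene was level across libraries. Library totals worked out from the RPKM steps were 13375674, 14550158 and 14281395 reads in the untreated libraries and 10376530, 13956222 and 10770476 in OHT replicates 1, 2 and 3. OHT replicate 2 was therefore the OHT library closest in depth to the untreated ones, and each change was looked up in it. Of 21671 genes, 9745 reached an RPKM of 1 in at least 3 of the 12 libraries and were tested with limma. A gene is called where the adjusted p of limma with Benjamini-Hochberg adjustment (BH) was under 0.05.

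Defining markers of the B lineage were largely missing from these cells. Of 20 such markers, 16 stayed under an RPKM of 1 in all 6 libraries. Of these, 9 had 0 reads in every library, among them Pax5, Vpreb2, Rag1, Dntt, Blnk, Ms4a1, Il7r and Pou2af1. At this depth 0 reads do not exclude a low level. Ptprc, the leukocyte antigen CD45, stood at 17.9, 17.7 and 16.8 in the untreated and 16.1, 15.7 and 16.9 in the OHT libraries. Transcripts of other blood lineages were plentiful: Gata2, a factor of progenitors and mast cells, stood at 34.3, 34.1 and 35.3 without OHT and 25, 26.2 and 24.5 with it, and Gata1, the erythroid and megakaryocyte factor, at 27.5, 28 and 26.9 without OHT and 32.8, 32.3 and 31.3 with it. Cebpe, a factor of granulocyte maturation, lay between 21.5 and 25.3 in the 6 libraries. Of 14 fibroblast and endothelial markers 9 were at 0, among them Cdh5 and Kdr. The markers thus went against the lymphoid label, and the cells are called FL MycER cells below.

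OHT moved a large share of the transcriptome by small amounts. In all, 3546 of 9745 genes were called (36.4%), 1769 of them higher in OHT (18.2%) and 1777 lower (18.2%), with a median size of 0.32 on the log2 scale. The even split rests on the scaling, since RPKM as deposited gave 2059 higher and 1487 lower, and without OHT replicate 2 there were 2255 and 1871. A change of at least 1 log2 was reached by 56 genes called higher and 106 called lower. The 3 OHT libraries lay wholly above or wholly below the 3 untreated ones for 46% of all genes tested, which is the background for any statement that groups do not overlap. In OHT replicate 2 alone, 3427 of the calls lay beyond all 3 untreated libraries in the direction of the call (35.2% of the genes tested), and 1, Selenbp1, stood level with the untreated mean (0.00 log2). In OHT_IACS against IACS, where 26.5% of genes were called, 1898 of the calls were made again in the same direction (19.5% of the genes tested). These were 53.5% of the calls of OHT against untreated and 73.4% of those of OHT_IACS against IACS, while 12 genes were called in opposite directions. Across all genes the 2 contrasts had a Pearson r of 0.699 and a Spearman rho of 0.717. The points are genes, which are not independent replicates, and the contrasts share no library.

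**Figure D1:**
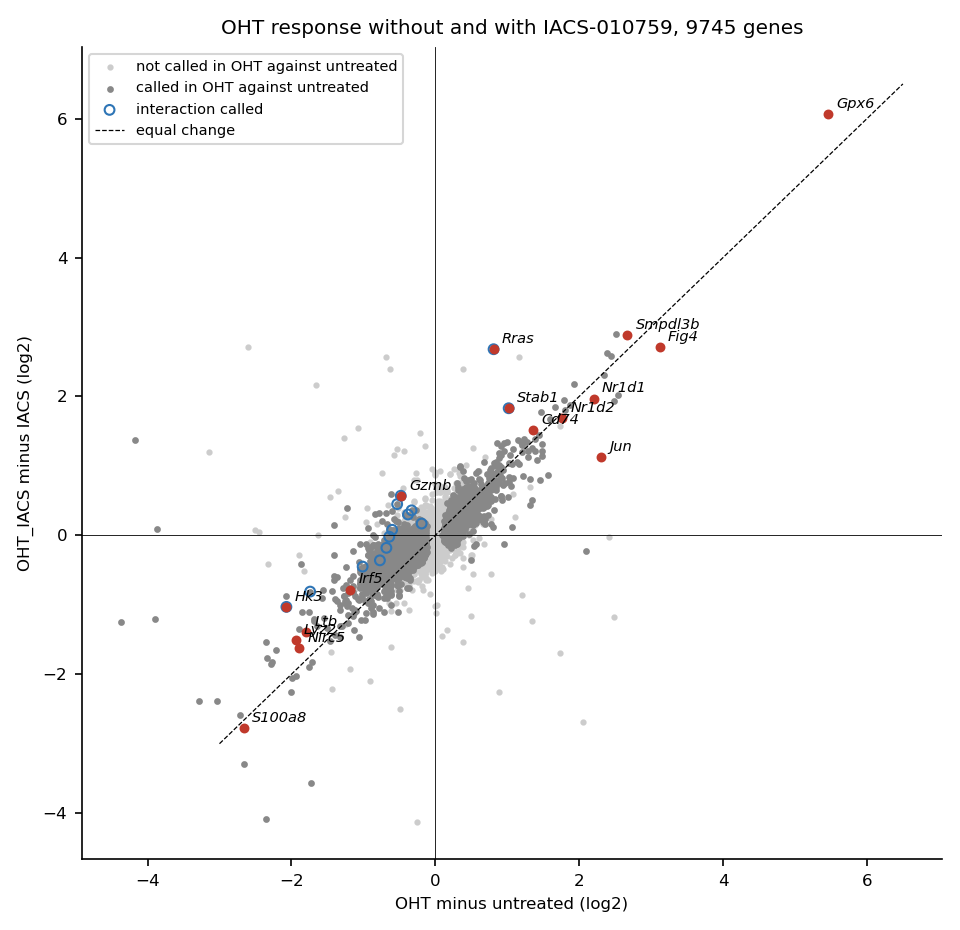
Each point is 1 of 9745 genes, with OHT minus untreated on the x axis and OHT_IACS minus IACS on the y axis (both log2). Gpx6 lies far to the upper right at 5.46 and 6.06, S100a8 lies to the lower left, and Gzmb and Hk3 are among the 14 genes (blue rings) whose 2 changes differed by the interaction test.

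The 12 largest rises outside the MYC, OxPhos and ATF4 lists ran from 1.93 to 5.46 log2, and all 12 were called again in OHT_IACS against IACS and in a fit with OHT replicate 2 as the only OHT library. That fit takes the spread of its single OHT library from the other groups, and since OHT replicate 2 also entered the choice of these genes it is no independent support. Gpx6, of the glutathione peroxidase family, went from 1 read over the 3 untreated libraries to 232 reads over the 3 OHT libraries, and its scaled RPKM was 4.92, 5.45 and 4.8 in OHT. The ratio was 274, with an exact 95% interval of 48.7 to 10900 that covers counting error only. Fig4, a phosphoinositide phosphatase of endosomes, stood at 0.723, 0.962 and 0.991 in the untreated and 8.52, 8.81 and 8.01 in the OHT libraries, a rise of 3.12 ± 0.12 (SE) log2 (limma, BH-adjusted p = 1.5e-09). That all 3 OHT libraries lay beyond all 3 untreated ones was a condition for choosing these 12 genes and the 12 largest falls, and is no result.

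Smpdl3b, a sphingomyelinase-like enzyme of the plasma membrane, went from 1.34, 1.2 and 1.35 to 9.39, 7.96 and 8.99 (2.67 ± 0.14 log2, limma BH-adjusted p = 2.3e-08). Several other large rises concerned genes of sugar handling and complement. The glucose transporter gene Slc2a6 stood at 0.893, 0.594 and 0.784 without OHT and 4.19, 4.83 and 4.54 with it, and the hexokinase-like Hkdc1 rose by 2.54 log2 from no more than 0.22. C1ra, the C1r protease that starts the complement cascade, went from 1.45, 1.81 and 1.69 to 9.57, 8.34 and 8.35, and C1rb rose by 2.49 log2. C1ra and C1rb are close copies, as are the members of the Psg family to which Psg16 (2.51 log2) belongs, and how reads were split between copies is uncertain. The list of largest rises was completed by the melanocortin receptor Mc1r (2.39 log2), the factors Jun and Nr1d1 (below), and Zc3h12d, an RNase of the regnase family (1.93 log2).

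All of the 12 largest falls, from -1.93 to -2.71 log2, were likewise called in both of those fits. S100a9, a subunit of the granulocyte protein calprotectin, went from 29.1, 26.3 and 26.3 to 5.26, 3.29 and 3.89, a difference of -2.71 ± 0.13 log2 (limma, BH-adjusted p = 7.7e-09). Its partner S100a8 went from 27.4, 21.7 and 21.2 to 5.32, 2.69 and 3.25. In both genes OHT replicate 2 was the lowest of the 6 libraries. Ass1, the argininosuccinate synthase of arginine synthesis, stood at 2.46, 1.87 and 2.7 without OHT and 0.182, 0.515 and 0.5 with it (-2.36 log2). Mc5r, like Mc1r a melanocortin receptor, moved the other way, from 10.8, 12.5 and 11.6 to 1.79, 2.72 and 2.9 (-2.22 log2). Klhl6, a kelch protein of B cell signalling, changed by -2.27 log2. Further falls were those of Rab37, a GTPase of secretory vesicles (-2.28 log2), and of the Golgi pseudokinase gene Fam20a (-2.34 log2). Epx, the peroxidase of eosinophils, changed by -2.08 log2, and Ifitm6 by -1.93 log2.

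The E-box was looked for in RefSeq promoter windows (GRCm38.p6, 250 bases before to 50 after each start), which 7803 of the 9745 genes tested had. It reads the same on both strands. Of the genes called higher with a window, 14.4% held CACGTG in at least 1 window, beside 12.3% of all genes tested and 11.9% of those not called. The genes called higher here include members of the MYC lists. Of all 32851 windows, each counted singly, 7.15% held it, which is not comparable with the shares of genes. Windows were found for 79.6% of the genes called lower, which is under the 80% this comparison asks for, so their share is not given. Stretches of 80 bases from 4 promoters that hold it are shown, those of Gpx6 and of the zinc finger factor Klf6, which rose, and those of Ass1 and of the growth arrest gene Gadd45g, which fell. The E-box is in capitals, each stretch lies wholly before the annotated start, and all 4 are on the plus strand.
Gpx6, chr13:21312045-21312124, E-box 121 to 116 bases before the start: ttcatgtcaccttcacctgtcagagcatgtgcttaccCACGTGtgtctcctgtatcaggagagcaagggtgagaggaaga
Klf6, chr13:5861409-5861488, E-box 43 to 38 bases before the start: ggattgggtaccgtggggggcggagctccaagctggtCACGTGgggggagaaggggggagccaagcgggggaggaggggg
Ass1, chr2:31470190-31470269, E-box 36 to 31 bases before the start: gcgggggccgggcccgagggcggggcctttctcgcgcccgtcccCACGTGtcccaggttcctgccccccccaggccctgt
Gadd45g, chr13:51846496-51846575, E-box 142 to 137 bases before the start: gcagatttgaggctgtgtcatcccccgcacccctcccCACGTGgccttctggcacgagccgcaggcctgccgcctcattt

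The same 6 letters thus stood before genes that moved in either direction, and the match is a description of the sequence only. Klf6 went from 5.32, 5.43 and 5.38 to 11.1, 12.4 and 12.3 (1.13 ± 0.06 log2, limma BH-adjusted p = 3.3e-08), with OHT replicate 2 the highest of the 6 libraries. Gadd45g went from 2.4, 1.94 and 2.8 to 0.735, 1.24 and 1.1 (-1.16 log2).

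35 lists of genes by function, with 1409 genes tested between them, were counted next. Each is set beside all genes tested, of which 18.2% were called higher and 18.2% lower, with a median of 0.01 log2. In 10 lists the median lay below 0 in all 3 OHT libraries and in 7 above 0, while in the other 18 the libraries fell on both sides or on 0. The lists were written by hand, with earlier results of these data known. Counts from other settings have their own background. Without OHT replicate 2, 2255 of the 9745 genes were called higher and 1871 lower, and on RPKM as deposited 2059 and 1487. OHT replicate 2 took part in the calls. In it, 95.4% of all genes called higher and 97.9% of those called lower lay beyond every untreated library. Counts of falls or rises seen in it are therefore no independent support.

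**Figure D2:**
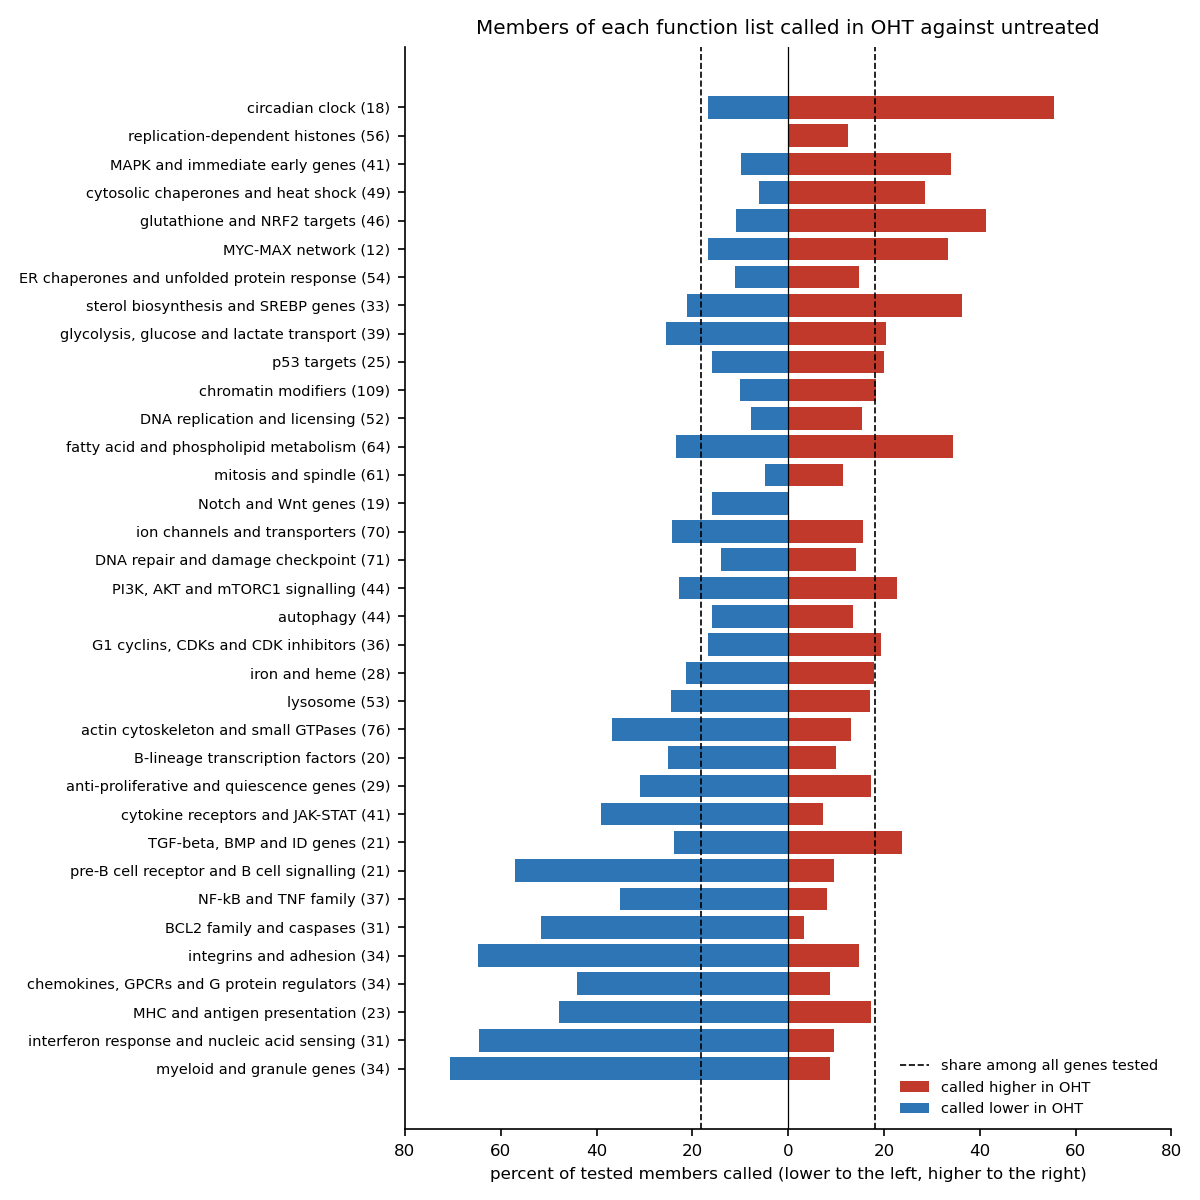
Percent of the tested members of each function list (number tested in brackets) called lower (left, blue) or higher (right, red) in OHT; the dashed lines mark the 18.2% of all genes tested. Myeloid, interferon and adhesion genes reach furthest to the left and the circadian clock furthest to the right.

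Myeloid and granule genes were the list with the lowest median. Of 34 tested, 24 were called lower and 3 higher, with medians of -0.46, -0.49 and -0.50 log2 in OHT replicates 1, 2 and 3. All 24 falls lay below every untreated library in OHT replicate 2, and 19 were called lower again in OHT_IACS against IACS. For all genes called lower these shares were 97.9% and 56.5%. Beside the calprotectin genes, the granule proteases of neutrophils and monocytes went down, cathepsin G (Ctsg) from 9.95, 10.3 and 8.07 to 4.36, 3.93 and 5.45 and proteinase 3 (Prtn3) from 20.2, 21.8 and 21.7 to 9, 11.2 and 11.2. Lysozyme (Lyz2) went from 1.62, 1.83 and 1.9 to 0.244, 0.518 and 0.447; it has a near-identical copy, Lyz1, so its level is uncertain. Mpo, the myeloperoxidase that makes hypochlorous acid, moved less, from 13.9, 12.9 and 12.1 to 9.79, 11.5 and 9.23 (-0.35 log2). Subunits of the NADPH oxidase that feeds it fell together, with Ncf1 at -0.81, Ncf4 at -0.70 and Cyba at -0.34 log2.

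Hk3, the hexokinase of myeloid cells, went from 14.9, 15.3 and 16.2 to 3.64, 3.73 and 3.42 (-2.07 ± 0.08 log2, limma BH-adjusted p = 1.5e-09). With IACS-010759 its change was -1.03 log2, and the 2 changes differed (interaction 1.04 log2, limma BH-adjusted p = 0.0015). Fcgr3, an activating receptor for IgG, went from 2.87, 3.5 and 3.09 to 1.23, 1.06 and 1.62, and the integrin gene Itgb2, shared by the leukocyte integrins, changed by -0.99 log2. The 3 members called higher were Hdc, the enzyme that makes histamine (0.32, 0.293 and 0.207 to 1.59, 1.01 and 0.613), the protease inhibitor gene Serpinb1a (0.31 log2) and Gfi1b (0.20 log2), a repressor of the erythroid and megakaryocyte lineages. The summed scaled RPKM of 20 granulocyte and monocyte markers was 154 to 163 in the untreated and 91.3 to 93.6 in the OHT libraries. Of these markers Ly6c2 was at 0 in all 6 libraries, Elane, Csf1r, Csf3r, Ltf and Camp stayed under 1, Cebpe and Tyrobp were not called, and 1, Emr1 (the macrophage antigen F4/80), rose from 16.9, 16.8 and 16.7 to 20.9, 20.4 and 20.5. The sums of the other marker lists were 73.9 to 80.3 in OHT against 85.1 to 87.2 in untreated libraries for mast cells and basophils, 19.1 to 21.0 against 28.4 to 28.9 for T and NK cells, 58.7 to 62.2 against 63.6 to 65.1 for the erythroid and megakaryocyte lineages, 19.1 to 20.5 against up to 23.4 for the B lineage, and 24.8 to 26.5 against 28.5 to 30.0 for fibroblasts and endothelium. Single genes made up most of some sums. In the untreated libraries Ptprc, the leukocyte antigen, stood at 16.8 to 17.9 within the B-lineage sum. Gzmb stood at 21.2 to 22.8 within the T and NK sum and Pecam1 at 25.0 to 26.5 within that of fibroblasts and endothelium. S100a8 and S100a9, given above, made a large part of the drop in the granulocyte and monocyte sum. The part of these cell types in the falls was not tested. In bulk RNA, fewer cells of a kind and less RNA in each cell cannot be told apart.

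**Figure D3:**
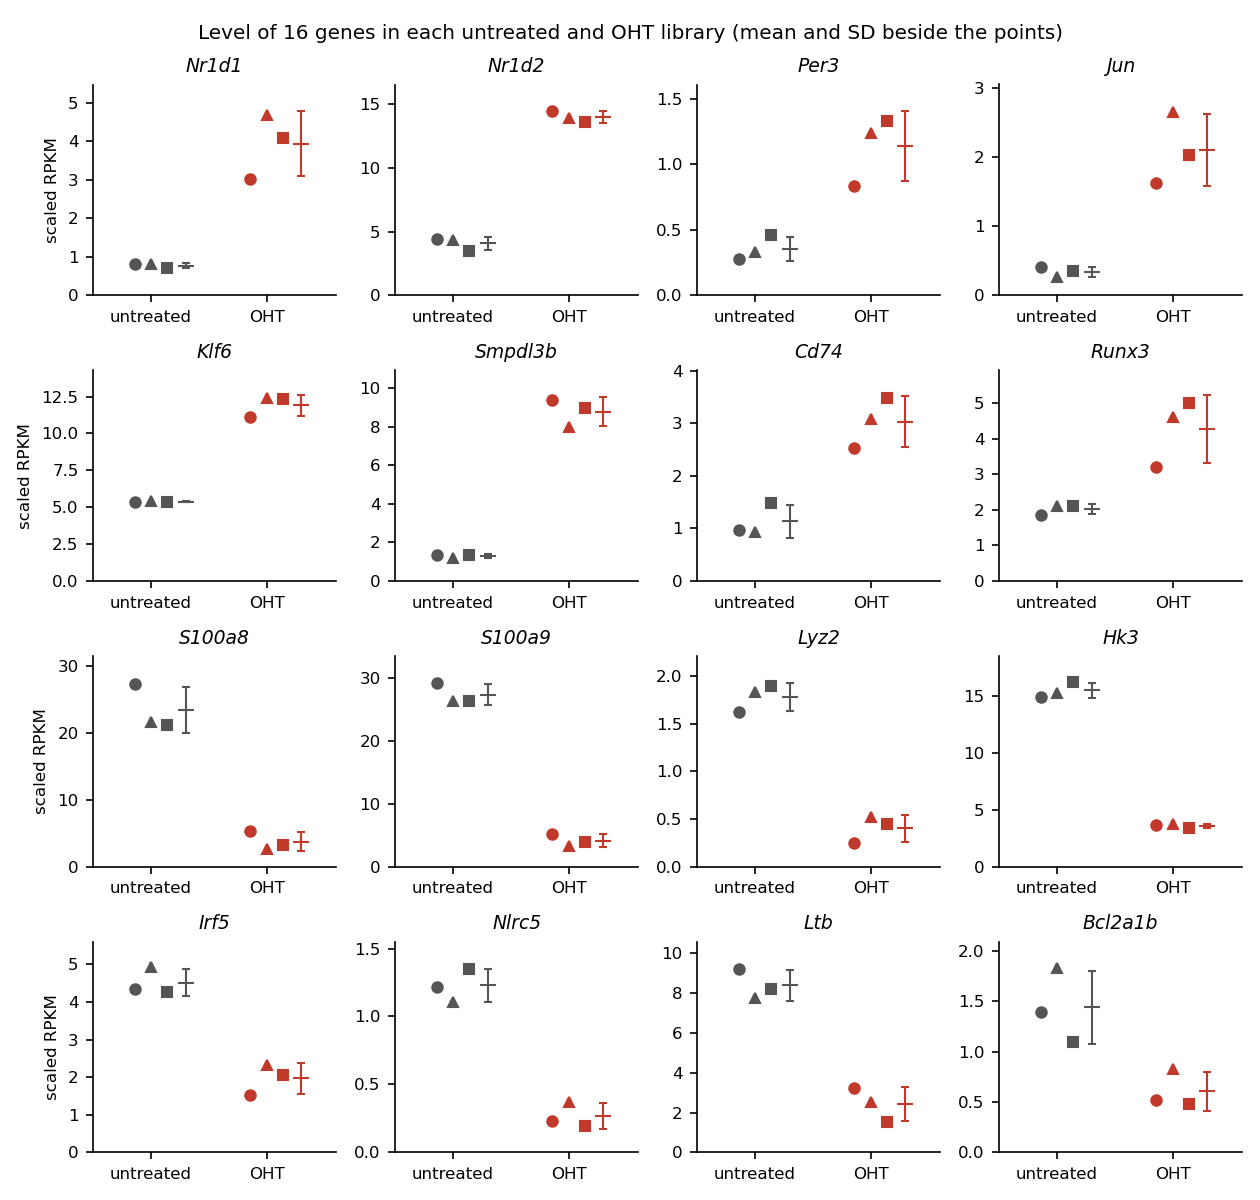
Scaled RPKM (y axes, from 0) of 16 genes in the 3 untreated (grey) and 3 OHT (red) libraries; circles, triangles and squares are replicates 1, 2 and 3, and the bar beside them is the mean with its SD (n = 3). In every panel the OHT points lie wholly above the untreated ones (upper 8 genes) or wholly below them (lower 8 genes), the triangle of OHT replicate 2 included. Most of these genes were chosen by a rule that asks for groups that do not overlap.

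Interferon and nucleic acid sensing genes were lower too. Of 31 tested, 20 fell and 3 rose, with medians of -0.36, -0.26 and -0.40 log2 in the 3 OHT libraries and -0.23 in OHT_IACS against IACS. Every one of the 20 falls was seen in OHT replicate 2, and with that library alone 10 members were called lower and 3 higher. Irf5, which turns on inflammatory cytokine genes, went from 4.35, 4.92 and 4.27 to 1.53, 2.33 and 2.05, a difference of -1.18 ± 0.15 log2 (limma, BH-adjusted p = 5.1e-05). Irf1, a factor that interferon itself induces, went from 3.9, 3.93 and 3.87 to 2.42, 2.45 and 1.84, and the factors that carry the signal of type I receptors also fell (Irf9 -0.35, Stat2 -0.31 log2). Among interferon-induced effectors, the GTPase genes Igtp (-1.14), Ifi47 (-0.56) and Irgm1 (-0.50) fell, as did Ifit2 (-0.62) and the RNA-dependent kinase gene Eif2ak2 (-0.50). The receptor for bacterial lipopolysaccharide, Tlr4, was 1 of the 3 that rose, from 2.36, 2.41 and 1.46 to 3.1, 4.13 and 3.29, with Trim25 (0.26) and Tmem173, the DNA sensing adaptor STING (0.27 log2). Ifnar2, a chain of the type I interferon receptor counted with the cytokine receptors, rose from 7.29, 7.56 and 7.13 to 10.1, 9.39 and 10.1.

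Genes that load peptides onto MHC class I fell alongside. Nlrc5, the transactivator of class I genes, went from 1.22, 1.11 and 1.35 to 0.228, 0.373 and 0.196, a 4.62-fold lower mean (-1.89 ± 0.21 log2, limma BH-adjusted p = 1.8e-05). Lower too were the peptide transporter (Tap1 -0.41, Tap2 -0.51), the loading factor Tapbp (-0.32), the immunoproteasome (Psmb8 -0.27, Psmb9 -0.27, Psmb10 -0.53) and the trimming enzyme Erap1 (-0.64 log2). In all, 11 of 23 members fell and 4 rose, with 10 and 3 called again under IACS-010759. The largest rise was Cd74, the invariant chain of MHC class II, from 0.968, 0.937 and 1.49 to 2.53, 3.08 and 3.47 (1.36 log2), whereas the class II loading gene H2-DMb1 fell (-0.82 log2). H2-M3, a class I molecule that presents formylated peptides, rose by 0.62 log2. Genes of the H2 family resemble each other, and reads may be split between them.

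Integrins and other adhesion genes were called lower in 22 of 34 cases and higher in 5, with medians of -0.31, -0.23 and -0.32 log2. All 22 falls lay below every untreated library in OHT replicate 2 and 18 were called lower again with IACS-010759, beside 97.9% and 56.5% of all genes called lower. The chains of leukocyte integrins dropped, Itgal (LFA-1) from 1.69, 1.76 and 2.08 to 0.618, 1.03 and 0.544, Itgb2 from 11.3, 12.5 and 12.1 to 5.41, 6.47 and 6.07, with changes of -0.97 log2 for Itga6 and -0.69 for Itga4. Selplg, the ligand of P-selectin, went from 6.81, 6.49 and 6.13 to 3.13, 3.54 and 3.25. Semaphorins and their receptor went the same way, with Sema4a from 4.49, 5.15 and 5.76 to 2.11, 2.27 and 1.7, Sema4d at -0.66 and Plxnd1 at -1.05 log2. The rises were smaller: Ly9 (0.47), Itgb7 (0.35, with overlapping groups), Itgb3 (0.32), Itgb1 (0.23) and Tspan3 (0.20 log2). With OHT replicate 2 alone Ly9 stood at 0.45 log2 and was not called (limma, BH-adjusted p = 0.23), and without OHT replicate 2 the list had 3 rises.

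Chemokine receptors, other G protein-coupled receptors and their regulators followed, with 15 of 34 lower and 3 higher. Gpr97, an adhesion receptor of granulocytes, went from 3.41, 3.88 and 3.91 to 1.57, 1.49 and 1.4 (-1.27 ± 0.09 log2, limma BH-adjusted p = 4.9e-07), and the prostaglandin receptor gene Ptger4 fell (-0.98 log2). Cxcr4, the receptor that holds progenitors in the marrow, stood at 27, 26.5 and 28.2 without OHT and 19.5, 21.8 and 20.8 with it. Rgs1, which ends G protein signals, rose by 0.86 log2, while Rgs12 (-0.84) and Rgs14 (-0.70) fell. Among genes of the actin cytoskeleton and its small GTPases, 28 of 76 were lower and 10 higher, at a list median near 0 (-0.03 log2), and the rises numbered 23 without OHT replicate 2. Here Arhgap4 went from 15.6, 16.2 and 16.1 to 7.62, 8.83 and 8.54, and the LIM kinase gene Limk1, whose product phosphorylates cofilin, rose from 2.42, 2.16 and 2.69 to 6.87, 6.86 and 7.09 (1.49 ± 0.09 log2, limma BH-adjusted p = 9.4e-08).

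FL MycER cells depend on interleukin 3, which signals through JAK2 and STAT5. Of 41 genes of cytokine receptors and JAK-STAT, 16 were lower and 3 higher, with a median of -0.04 log2 in OHT replicate 2. The shared beta chain of the interleukin 3 receptor, Csf2rb, stood at 41.9, 41.5 and 42.2 in the untreated and 47, 43.9 and 46.7 in the OHT libraries and was not called (0.13 log2, limma BH-adjusted p = 0.061). Its alpha chain Il3ra went from 7.59, 7.01 and 8.52 to 5.27, 6.61 and 5.81 (-0.38 log2); with IACS-010759 the change was 0.30, and the 2 differed (limma interaction, BH-adjusted p = 0.045). Stat5a fell from 7.68, 7.97 and 8 to 3.97, 5.45 and 4.7 while its sister gene Stat5b rose from 7.58, 7.97 and 7.85 to 8.94, 10.3 and 9.12. Lower were the feedback inhibitors Cish (-0.42), Socs2 (-0.46) and Socs3 (-0.61) and the kinase genes Pim1 and Pim2 (-0.38 and -0.38 log2, the groups overlapping for Pim2). Pim1, one of the more abundant transcripts, went from 58.4, 58 and 59.1 to 44.5, 45.3 and 44.6. Stat4, which relays interleukin 12, went from 2.11, 1.95 and 2.12 to 0.817, 0.598 and 0.824 (-1.36 log2).

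NF-kB and TNF family genes included 13 falls and 3 rises among 37. The lymphotoxin beta gene Ltb went from 9.24, 7.74 and 8.19 to 3.26, 2.55 and 1.52 (-1.80 ± 0.21 log2, limma BH-adjusted p = 2.6e-05), Tnfsf14 (LIGHT) changed by -1.76 log2, and Tnf (-0.63) and its receptors Tnfrsf1b (-0.64) and Tnfrsf1a (-0.41) fell. Among the 3 rises were Relb, from 0.327, 0.471 and 0.453 to 1.16, 1.25 and 1.2, and Map3k14, the kinase NIK (0.75 log2), while Birc2 and Birc3 fell (-0.25 and -0.38). The rise of Relb was not called under IACS-010759 (0.51 log2, limma BH-adjusted p = 0.11), and a difference between its 2 changes was not detected by the interaction test (limma, BH-adjusted p = 0.3).

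Of the few genes of B cell signalling that could be tested, 12 of 21 were lower and 2 higher, at -0.18, -0.19 and -0.15 log2 in the 3 OHT libraries. Cd79b, a signalling chain of the B cell receptor, went from 3.05, 2.62 and 3.29 to 1.08, 1.53 and 1.44, the kinase gene Syk from 7.45, 7.23 and 7.3 to 4.33, 4.76 and 4.8 and the inhibitory receptor gene Fcgr2b changed by -0.86 log2. Pik3ap1, an adaptor for PI3K, rose from 1.39, 1.26 and 1.27 to 1.95, 2.52 and 2.5. Among transcription factors of lymphoid development, Tcf4 went from 2.67, 2.72 and 2.68 to 1.61, 1.86 and 1.72 and Runx3 from 1.87, 2.1 and 2.12 to 3.2, 4.62 and 5.01 (1.02 ± 0.14 log2, limma BH-adjusted p = 8e-05). Of these factors 5 of 20 were lower (8 without OHT replicate 2) and 2 higher.

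Among BCL2 family members and caspases, which decide between survival and apoptosis, 16 of 31 were lower and 1 higher, with a median of -0.21 log2 in OHT replicate 2. Falls touched both sides of the balance. The survival genes Bcl2 (23.7, 23.1 and 23.4 to 13.5, 15.2 and 13.9) and Bcl2l1 (17.9, 17.5 and 17.5 to 14.4, 15.2 and 15.5) fell, and so did Bcl2a1b (-1.13 log2), which has near-identical copies and whose reads are uncertain. The genes that promote death also fell, among them Bid (-0.32), Bad (-0.46), Apaf1 (-0.34), Casp8 (-0.35) and Casp6 (-0.33 log2). Genes of inflammatory death went with them, Casp1 from 4.78, 4.2 and 4.23 to 2.62, 3.3 and 3.19, Gsdmd at -0.45 and Mlkl at -0.42 log2. Bnip3, a mitophagy receptor, was the 1 rise, from 29.6, 24.1 and 29.4 to 34.7, 33.5 and 35.8, with 0.28 log2 in OHT replicate 2 alone (not called, limma BH-adjusted p = 0.18) and 0.01 log2 with IACS-010759; without OHT replicate 2 the list had 2 rises. Of the 16 falls 13 were called again with IACS-010759.

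The circadian clock was the list with the highest median. Of 18 genes tested, 10 were called higher and 3 lower, with medians of 0.27, 0.38 and 0.32 log2 in OHT replicates 1, 2 and 3, so that the deepest OHT library showed the largest shift. In OHT_IACS against IACS, 9 of the 10 rises and 2 of the 3 falls were called again. CLOCK and BMAL1 (Arntl) bind E-boxes of the same kind as MYC and drive the Per and Cry genes, which repress them, and the REV-ERB genes Nr1d1 and Nr1d2, which repress Arntl. Nr1d1 went from 0.811, 0.797 and 0.696 to 3.02, 4.68 and 4.09 (2.20 ± 0.15 log2, limma BH-adjusted p = 2.9e-07) and Nr1d2 from 4.45, 4.33 and 3.5 to 14.5, 13.9 and 13.6 (1.76 ± 0.08, limma BH-adjusted p = 9.4e-09). In Nr1d1 OHT replicate 2 was the highest of the 6 libraries.

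Other clock genes rose as well. Per3 went from 0.278, 0.33 and 0.456 to 0.832, 1.24 and 1.33, Tef from 6.85, 6.17 and 6.28 to 13, 12.9 and 12.8 and Dbp from 3.36, 3.37 and 2.51 to 5.74, 4.78 and 4.45, the last 2 being output factors of the PAR bZIP family. Smaller rises were measured for Cry2 (0.40), Cry1 (0.36), Per2 (0.32) and Clock (0.22 log2). Nfil3, the repressor that opposes Dbp and Tef at their sites, fell from 12.9, 12 and 12.9 to 8.65, 9.74 and 8.85. Arntl itself stood at 1.47, 1.57 and 1.53 in the untreated and 1.85, 1.69 and 1.61 in the OHT libraries and was not called (0.16 log2, limma BH-adjusted p = 0.28). The libraries are 1 time point, so that a phase of the clock was not measured.

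MAPK and immediate early genes were next, with 14 rises and 4 falls among 41, and medians of 0.00, 0.21 and 0.10 log2. Jun, a subunit of AP-1, went from 0.406, 0.263 and 0.353 to 1.62, 2.65 and 2.03 (2.31 ± 0.24 log2, limma BH-adjusted p = 8.6e-06), again with OHT replicate 2 highest. Jund (0.51) and Mapk8, the JNK1 kinase that phosphorylates Jun (0.43), rose with it. The phosphatases of the MAPK pathway split: Dusp16 (0.959, 1.07 and 1.01 to 3, 2.89 and 2.77) and Dusp1 (0.59 log2, with overlapping groups) rose, while Dusp4 (10.9, 11.3 and 12.2 to 6.75, 8.34 and 7.13) and Dusp6 (-0.58 log2), which are targets of ERK signalling, fell. Etv5, another ERK target, changed by -0.48 log2.

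**Figure D4:**
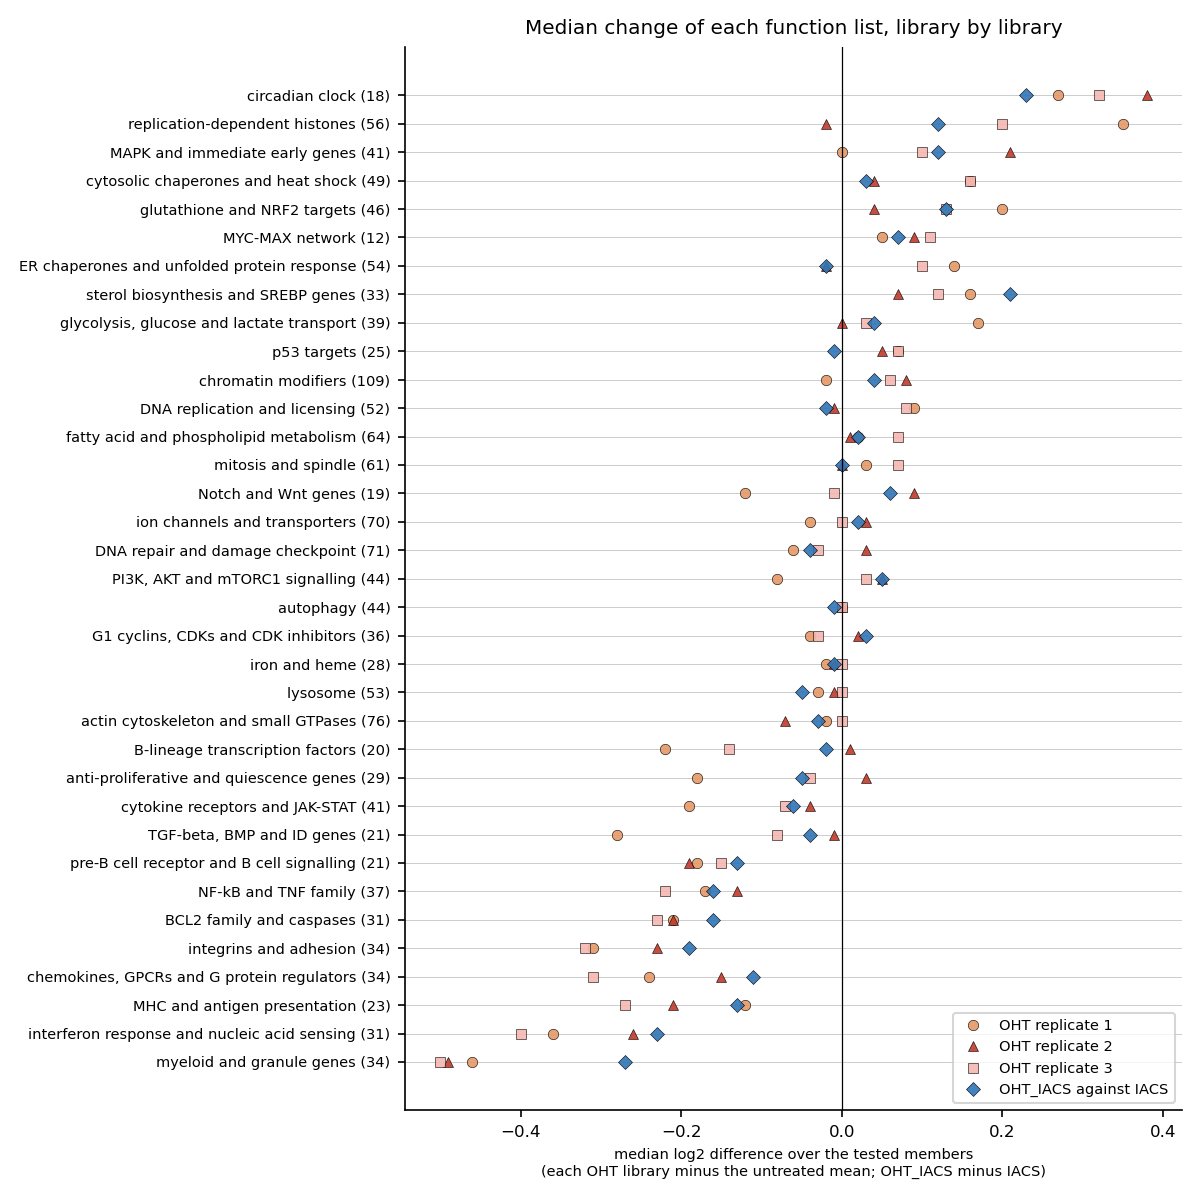
Median log2 difference over the tested members of each function list in OHT replicates 1, 2 and 3 (circle, triangle, square; each minus the untreated mean) and in OHT_IACS against IACS (blue diamond). For the circadian clock and for the 8 lists at the bottom all 4 symbols lie on 1 side of 0, whereas for histones and ER chaperones the triangle of OHT replicate 2 lies on the other side of 0 from replicates 1 and 3.

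In lipid metabolism the direction varied between steps. Sterol and SREBP genes comprised 12 rises and 7 falls among 33. Stard4, which carries cholesterol between membranes, went from 13.8, 14.3 and 14.5 to 26.8, 27.5 and 27.6 (0.94 ± 0.04 log2, limma BH-adjusted p = 9.4e-09), with a change of 0.94 log2 under IACS-010759. Synthesis genes rose, among them Mvk (0.67), Sqle (0.23), Lss (0.44) and Cyp51 (0.32), as did Srebf2 (0.34 log2), while Mvd (-0.41) and Hsd17b7 (-0.28) fell. The exporters of cholesterol went down, Abca1 from 1.46, 1.52 and 1.66 to 0.532, 0.781 and 0.506 with a change of -0.66 log2 for Abcg1. Of the 12 rises 12 lay above every untreated library in OHT replicate 2 and 11 were called again with IACS-010759. For all genes called higher these shares were 95.4% and 50.5%.

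Fatty acid and phospholipid genes counted 22 rises and 15 falls among 64. Genes of synthesis rose, Fasn (45.6, 46.6 and 49.8 to 57.2, 56.5 and 61.5), Acly (0.24), Elovl6 (0.22), Acsl1 (0.46) and the malic enzyme Me1 (0.46 log2), along with those of phosphatidylserine and its product (Ptdss1 0.30, Ptdss2 0.43, Pisd 0.25). Lower were the coat proteins of lipid droplets Plin2 (5.61, 6.66 and 6.59 to 3.73, 4.1 and 3.76) and Plin3 (-0.42), the triglyceride enzyme Dgat1 (-0.28) and the choline and ethanolamine branch (Pcyt1a -0.23, Pcyt2 -0.23, Pemt -0.28). The median of the list was 0.01 log2 in OHT replicate 2.

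Glutathione and NRF2 genes comprised 19 rises and 5 falls among 46. Hmox1, the heme oxygenase, went from 10.8, 11 and 12.9 to 16.1, 17.8 and 17.9, glutathione reductase (Gsr) from 27.9, 27.1 and 27.2 to 39.7, 32.6 and 39.5, and the factor Nfe2l2 (NRF2) from 16, 16 and 15.5 to 20.1, 18.8 and 20.5. Nqo1, a widely used NRF2 target, moved against them, from 6.03, 5.22 and 5.03 to 3.39, 3.62 and 3.17 (-0.66 ± 0.09 log2, limma BH-adjusted p = 6.1e-05). Some members stood near the untreated mean in OHT replicate 2: Prdx1 differed by 0.43, 0.05 and 0.33 log2 from the untreated mean in OHT replicates 1, 2 and 3, Txn1 by 0.48, 0.02 and 0.45, and the ferritin gene Ftl1 by 0.48, 0.09 and 0.32. The heavy ferritin gene Fth1 stood at 0.51, 0.14 and 0.39. The iron and heme list had 5 rises and 6 falls among 28 (17.9% and 21.4%), near the 18.2% of all genes in each direction. Its 2 transferrin receptor genes parted. Tfrc rose from 59.9, 56.9 and 54.7 to 76.2, 60 and 72.2, and Tfr2 fell from 2.83, 2.85 and 3.09 to 1.04, 1.4 and 1.12.

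Glycolysis and sugar transport had 8 rises and 10 falls of 39, which became 13 and 7 on RPKM as deposited and 14 and 9 without OHT replicate 2. The rises of Slc2a6 and Hkdc1 and the fall of Hk3 are given above. Pdk1, which shuts pyruvate out of mitochondria, went from 9.31, 9.22 and 9.39 to 16.9, 16 and 16.6, Slc2a1 (GLUT1) from 24, 23 and 25.2 to 30.6, 31.3 and 31 and G6pdx, the entry to the pentose phosphate pathway, by 0.31 log2, while the genes Pfkfb2, Pfkfb3 and Pfkfb4 that set the level of an activator of glycolysis changed by -0.32, -0.31 and -0.58 log2. PI3K, AKT and mTORC1 genes counted 10 rises and 10 falls of 44; Deptor, an inhibitor of mTOR, went from 0.439, 0.616 and 0.498 to 1.31, 1.51 and 1.4 and the factor Foxo4 from 3.71, 3.72 and 3.77 to 2.42, 2.97 and 2.82.

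Lysosome genes had 9 rises and 13 falls of 53 (17.0% and 24.5%), and autophagy genes 6 and 7 of 44 (13.6% and 15.9%). Of all genes tested 18.2% were called in each direction. The sulfatase Arsb went from 1.39, 1.48 and 1.6 to 0.696, 0.81 and 0.897 and the lipase Lipa changed by -0.43 log2, against a rise of the glucuronidase Gusb from 22.5, 23.6 and 23 to 32.9, 31 and 31.8 (0.47 ± 0.04 log2, limma BH-adjusted p = 3.1e-06). Pink1, the kinase that marks damaged mitochondria, went from 3.73, 3.39 and 3 to 1.72, 2.62 and 1.77, with -0.35 log2 in OHT replicate 2 alone (not called, limma BH-adjusted p = 0.17). Ion channel and transporter genes counted 11 rises and 17 falls of 70: calcium pumps of the surface and of the endoplasmic reticulum fell (Atp2b4 -1.22, Atp2a3 -0.53) with the store-operated channel gene Orai1 (-0.52) and the potassium channel gene Kcnn4 (-0.57 log2), and the chloride exchanger gene Clcn3 rose from 1.13, 1.15 and 1.15 to 1.92, 1.94 and 2.03.

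Chromatin modifiers, the longest list, had 20 rises and 11 falls of 109 (18.3% and 10.1%), near or below the 18.2% of all genes in each direction. Ezh1, a histone H3 lysine 27 methyltransferase of resting cells, went from 2.78, 2.93 and 2.95 to 4.73, 5.63 and 5.41 (0.84 ± 0.08 log2, limma BH-adjusted p = 4.9e-06), and Tet2, which oxidises methylcytosine, by 0.40 log2. The DNA-binding protein gene Arid3a went from 5.93, 6.14 and 5.93 to 2.84, 3.31 and 2.64, and the gene Cbx8 of the Polycomb complex changed by -0.70 log2. In the TGF-beta list (5 rises and 5 falls of 21, or 3 and 8 without OHT replicate 2) the signal transducer Smad3 went from 2.5, 2.28 and 2.11 to 0.667, 1.17 and 0.944 and the corepressor Tgif1 from 8.97, 9.45 and 8.75 to 12, 11.4 and 11.1. Of 19 Notch and Wnt genes 3 fell (15.8%, below the 18.2% of all genes).

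Replication and mitosis genes stood below the background share of 18.2% in both directions. Without OHT replicate 2, 14 replication and 13 mitosis genes rose, beside 2255 of all 9745 genes. Of 52 replication genes 8 rose and 4 fell, and of 61 mitosis genes 7 rose and 3 fell, at medians of -0.01 and 0.00 log2 in OHT replicate 2. Cyclin D2 (Ccnd2), which starts the passage through G1, rose from 20.5, 20.9 and 22 to 31.7, 31.3 and 30.2 (0.55 ± 0.05 log2, limma BH-adjusted p = 5.7e-06), and the licensing kinase gene Cdc7 went from 13.2, 13.4 and 12.9 to 9.83, 11.1 and 10.2. Cdc25c, which frees CDK1 at mitosis, fell from 11.5, 10.9 and 11.4 to 8.6, 9.04 and 8.31. DNA repair genes stood at 10 rises and 10 falls of 71, among them a rise of the checkpoint kinase gene Atr (6.51, 6.98 and 6.62 to 8.3, 8.54 and 8.46) and a fall of the 8-oxoguanine glycosylase Ogg1 (8.34, 7.76 and 8.51 to 5.68, 5.26 and 4.51). Of 25 p53 targets 5 rose and 4 fell, with Zmat3 at 0.57 and Ddb2 at -0.45 log2. Anti-proliferative genes moved both ways (5 rises, 9 falls of 29), with Klf6 and the translation repressor gene Pdcd4 (0.75 log2) up and Gadd45g and Slfn2 (-0.78 log2) down.

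Some of the rises and falls went with the depth of the libraries. Reads of abundant genes hardly followed the library total: Actb had 2634 to 2813 reads in each of the 12 libraries. In the 84 genes with over 1 read per base, OHT replicates 1, 2 and 3 differed from the untreated mean by a median of 0.38, -0.03 and 0.29 log2, and in the 4422 genes with up to 0.1 read per base by -0.12, 0.01 and -0.07. The shallow replicates 1 and 3 thus read high for abundant genes and low for scarce ones, and OHT replicate 2 did not. The part of depth in any 1 call was not tested beyond these values and the fits with depth as a covariate and with OHT replicate 2 alone.

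**Figure D5:**
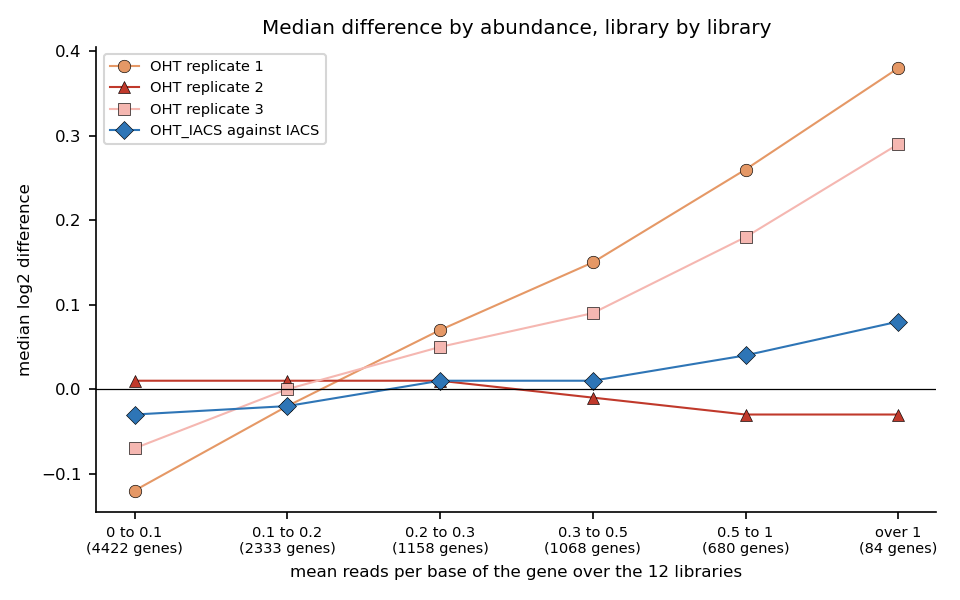
Median log2 difference of genes grouped by mean reads per base (x axis, number of genes in brackets) in OHT replicates 1, 2 and 3, each minus the untreated mean, and in OHT_IACS against IACS. The lines of replicates 1 and 3 climb to 0.38 and 0.29 in the most abundant genes, and that of replicate 2 stays between -0.03 and 0.01.

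The 5 most abundant genes called higher by the naming rule were Rps16, Sephs2, Hmga1, Ddb1 and Fkbp4. Rps16, a ribosomal protein gene, stood at 69.9, 67.6 and 71.1 in the untreated and 95.7, 73.6 and 80.8 in the OHT libraries, and Hmga1, an architectural chromatin protein, at 66.6, 62.5 and 65 and 84.9, 69.3 and 83.3. Their OHT replicate 2 lay just above the untreated libraries, and none of the 5 was called with OHT replicate 2 alone (log2 0.05 to 0.11) or in OHT_IACS against IACS. Of the 5 most abundant genes called lower, Mlec, Igfbp4, Pim1, Ptprcap and Nfe2, all 5 were called with OHT replicate 2 alone and 4 in OHT_IACS against IACS. Nfe2, a factor of platelet and red cell genes, went from 52.5, 53.1 and 52.2 to 43.9, 40.7 and 43.4, and Mlec, a lectin of the endoplasmic reticulum, from 77.8, 74.3 and 75.2 to 66.2, 57.9 and 64.2, with OHT replicate 2 the lowest.

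Some lists showed the same spread between libraries. Replication-dependent histone genes stood at 0.35, -0.02 and 0.20 log2 in OHT replicates 1, 2 and 3. Their near-identical copies make single genes uncertain. Of 56 tested, 7 rose (12.5%, below the 18.2% of all genes). The rises numbered 39 without OHT replicate 2 and 21 on RPKM as deposited. Cytosolic chaperones counted 14 rises and 3 falls of 49, and 24 and 5 without OHT replicate 2. Their medians were 0.16, 0.04 and 0.16 log2 in OHT replicates 1, 2 and 3. Hsph1, a member of the HSP110 family, held, from 8.27, 9.65 and 9.19 to 10.9, 12.4 and 11.9. ER chaperones had 8 rises and 6 falls of 54 (14.8% and 11.1%, below 18.2% in each direction), and 24 and 5 without OHT replicate 2. Their medians were 0.14, -0.02 and 0.10 log2 in OHT replicates 1, 2 and 3. The oxidase gene Ero1l went from 21.3, 21.3 and 20.9 to 31.7, 30.3 and 32.9. For comparison, the MYC-V1 and OxPhos lists set aside here stood at 0.29, 0.01 and 0.23 and at 0.26, -0.02 and 0.16 log2. Of MYC-V1 genes 35.0% were called higher and 1.5% lower, and of OxPhos genes 29.0% and 8.29%, beside 18.2% of all genes in each direction. Of their 70 and 56 rises, 55 and 51 lay above every untreated library in OHT replicate 2, a library that took part in the calls.

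Within the MYC network the transcripts of MYC genes fell. Myc went from 36.4, 36.4 and 37.3 to 19.9, 22.1 and 20.8 (-0.81 ± 0.05 log2, limma BH-adjusted p = 1.7e-07) and Mycn from 30.7, 29 and 30.7 to 19.5, 19.6 and 17.1 (-0.68 ± 0.06 log2, limma BH-adjusted p = 1.7e-06). Whether reads of the chimera count towards Myc was not tested. Esr1, the oestrogen receptor gene, lay between 7.87 and 8.82 in the 6 libraries and was not called. Mxi1, which competes with MYC for MAX, rose from 6.1, 6.59 and 6.55 to 12, 11 and 11.8 (0.85 log2), and Mxd3, of the same family, fell from 10.8, 7.9 and 9.04 to 5.96, 5.41 and 5.61. Max (0.18), Mlxip (0.31) and Mycbp2 (0.26 log2) were called higher by small amounts, while Mga, Mnt, Mlx, Mxd4, Mycbp and Zbtb17 were not called.

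Selenbp1, which oxidises methanethiol, was the call that OHT replicate 2 did not share. It stood at 9.04, 7.62 and 9.55 in the untreated and 6.19, 8.72 and 5.78 in the OHT libraries, so that OHT replicate 2 lay within the untreated range while replicates 1 and 3 lay below it (-0.35 log2, limma BH-adjusted p = 0.041). In OHT_IACS against IACS its change was -0.64 log2 (limma, BH-adjusted p = 0.0022).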

How the data were processed

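RNA was measured in 12 libraries in 4 groups of 3, of which 6 were compared here and the other 6 served as a second measurement of the OHT contrast. Libraries were made from total RNA with a stranded kit and ribosomal depletion. Per the submitters' processing notes, TopHat2 2.0.8, TopHat, SAMtools, featureCounts 1.4.5-p1 and DESeq2 were used with build mm9. The authors deposited RPKM per gene and library. The deposited table holds 6 more columns, log2 fold changes and p-values (adjusted) from comparisons the authors made, and these were not used.

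RPKM steps gave whole reads for all 15451 genes above 0 (tolerance 0.0001), and library totals of 10376530 to 14550158 reads followed, of which 4199266 to 5762340 lay on genes. RPKM was divided by a median-ratio factor (0.971 to 1.023) and fitted as log2(scaled RPKM + 0.1) with limma 3.58.1 (R 4.3.3, mean-variance trend, all 12 libraries in 1 fit) for genes of RPKM 1 or more in 3 or more libraries. Fold changes on this scale understate those of scarce genes. P-values were adjusted by the Benjamini-Hochberg method over 9745 genes. The method was tested on simulated data in which the reads of every gene followed the library total. Reads of abundant genes hardly did so here, and the simulation does not cover that. Summaries used Python 3.11.15 and matplotlib 3.10.9.

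The members and lists were chosen with earlier results of these data known. Genes named by rule, 108 in all, were the 12 largest rises and falls outside the MYC, OxPhos and ATF4 lists, the called member of each list with the largest rise and fall that, like those 12, had an RPKM of 1 or more in all 3 libraries of the higher group and groups that did not overlap, the 5 most abundant called genes in each direction, the MYC-MAX network, and called genes whose sign in OHT replicate 2 opposed the other OHT libraries. Some of these genes are not reported here. All other genes named were picked from the lists after their values were seen. Alternatives covered the pseudocount, filter, scaling, replicate block, trend, libraries fitted, depth covariate, voom on recovered reads, OHT replicate 2 alone and each library left out.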

Additional observations from a re-analysis of the deposited data

Results flagged for a closer look

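The OHT change differed between cells without and with IACS-010759 for 14 of 9745 genes by the interaction term (OHT_IACS minus IACS, less OHT minus untreated; limma, BH-adjusted), and 6 of them belong to the lists or named genes described here.

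Gzmb, the protease granzyme B, changed by -0.48 log2 without the inhibitor and by 0.57 with it, a difference of 1.05 (limma, BH-adjusted p = 6.7e-05). Cfp, properdin of the complement system, changed by -0.53 and 0.45, a difference of 0.98 (limma, BH-adjusted p = 0.0035). Il3ra changed by -0.38 and 0.30, a difference of 0.68 (limma, BH-adjusted p = 0.045), and Cat, the enzyme catalase, by -0.19 and 0.17, a difference of 0.36 (limma, BH-adjusted p = 0.045). Hk3 and Mycn kept their sign and moved less with the inhibitor, Hk3 by -2.07 and -1.03, a difference of 1.04 (limma, BH-adjusted p = 0.0015), and Mycn by -0.68 and -0.18, a difference of 0.50 (limma, BH-adjusted p = 0.039).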

How the results depend on the processing

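With log2 library total as a covariate 2351 genes were called, 1156 of them lower, and with OHT replicate 2 alone 1870, of which 912 were higher and 958 lower; the latter fit also has 1 OHT library in place of 3. Of the 3546 calls, 2084 and 1716 were made again in these fits, and 3545 kept their sign in each. Leaving out 1 library gave 2657 to 4126 calls, and all kept their sign. Of 102 named genes called, 23 lost the call with OHT replicate 2 alone and 18 with the covariate. The interaction count of 14 became 7 with no filter, 5 on RPKM as deposited, 34 with quantile normalization, 7 with the replicate block, 5 with the covariate and 25 with voom. Selenbp1 stood at 0.00 log2 with OHT replicate 2 alone, and Mnt, not called, changed sign without OHT replicate 2 or 3 or untreated replicate 1, over a range of -0.04 to 0.12 with 1 library left out. Same-numbered untreated and OHT libraries deviated together weakly (r = 0.083, 0.104 and 0.088 for the 3 numbers), and the other pairs ran from -0.079 to -0.009. Between IACS and OHT_IACS libraries the same-numbered r were -0.105, -0.031 and 0.073. Whether equal numbers mark paired cultures is not given, and the main fit did not pair them. The replicate block gave 3593 calls, with 3416 of the 3546 made again. The cause of these shifts was not tested.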
